A study of Mus musculus with 4 samples.

Results

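The expression of 48 genes of mitosis and the mitotic spindle was followed in neural stem cells of the mouse, which divide in culture and give rise to neurons and glia. The genes were taken by name from a list of mitotic cyclins, kinases, checkpoint proteins, motors, condensins and anaphase factors, and had to be annotated as protein-coding. All 48 were found among the 55487 gene IDs of the table. All 48 also passed the minimum level of 10 transcripts per 1000000 (TPM, a level scaled to transcript length and to the library) in at least 1 library, as did 8474 protein-coding genes in all.

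The study asked how the loss of Tut1, which adds uridines to the end of the U6 spliceosomal RNA, affects stem cells with and without the tumour suppressor Trp53. The samples form 4 groups, each with 1 library. As the control served a Tut1 f/f culture, in which both copies of Tut1 were floxed (flanked by the sites that Cre recombinase cuts) but intact, and it received empty lipid nanoparticles (LNP). The library labelled Tut1 KO came from Tut1 f/f cells, the Trp53 KO library from p53 f/f cells, and the double KO library from Tut1 f/f;p53 f/f cells. These 3 cultures received LNP carrying Cre mRNA, for 3 days according to the series text, so each carried a different floxed genotype and all shared the exposure to Cre. Because the control received neither Cre nor its mRNA, the gene and the treatment cannot be told apart in the comparisons with it. Since no group has a second library, differences cannot be set against replicate error, and the values below carry no error or p-value. The table holds TPM without read counts, which leaves sequencing depth unknown.

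Mitosis is driven by cyclin-dependent kinase 1 with cyclins A and B, which start chromosome condensation and spindle assembly. The spindle assembly checkpoint then holds the anaphase-promoting complex in check until every kinetochore is attached, after which securin and the B cyclins are destroyed, sister chromatids part and the cell divides. The mRNAs of these proteins rise together late in the cell cycle, through promoter elements such as the CCAAT box and the cell cycle homology region (CHR), which is bound by the MuvB complexes. When p53 is active, its target p21 (Cdkn1a) shifts these complexes to the repressive DREAM form, so this set of genes is known as a readout of both proliferation and p53 activity in stem cells.

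The proximal promoters are shown here because these elements are what the members are known to share. RefSeq promoter windows (mouse build GRCm38.p6, from 250 bases before to 50 bases after the annotated start) were matched by symbol for 40 members, with 43 windows. Aurkb, Ccna2, Cdc25c, Incenp, Kif20a, Smc4, Spc24 and Tpx2 had no window here. The CHR was searched as TTTGAA or TTCGAA and the CCAAT box as CCAAT, each on either strand. Below, the 100 bases before the start and the 30 bases from it on are given for 6 members that hold a CHR there and for Ccnb1. The window of Ccnb1 holds neither of these CHR spellings, and other spellings were not searched. Capitals mark matches to either motif: runs of 6 capitals are a CHR and runs of 5 a CCAAT box, and a run that does not read as spelled above lies on the other strand.
Ccnb2 (chr9:70421525-70421654, minus strand): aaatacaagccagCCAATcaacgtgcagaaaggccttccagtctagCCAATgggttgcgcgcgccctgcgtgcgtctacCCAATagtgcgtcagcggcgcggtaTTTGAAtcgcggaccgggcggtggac
Ube2c (chr2:164769829-164769958, plus strand): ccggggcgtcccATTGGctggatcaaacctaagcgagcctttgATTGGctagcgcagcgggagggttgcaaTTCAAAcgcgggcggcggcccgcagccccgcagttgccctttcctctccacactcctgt
Bub1 (chr2:127831830-127831959, minus strand): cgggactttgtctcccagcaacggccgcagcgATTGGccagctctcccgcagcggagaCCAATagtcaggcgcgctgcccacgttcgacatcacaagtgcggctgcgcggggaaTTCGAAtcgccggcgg
Kif11 (chr19:37376282-37376411, plus strand): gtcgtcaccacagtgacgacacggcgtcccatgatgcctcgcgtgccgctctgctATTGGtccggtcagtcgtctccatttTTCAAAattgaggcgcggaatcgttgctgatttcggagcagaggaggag
Kif23 (chr9:61946770-61946899, minus strand): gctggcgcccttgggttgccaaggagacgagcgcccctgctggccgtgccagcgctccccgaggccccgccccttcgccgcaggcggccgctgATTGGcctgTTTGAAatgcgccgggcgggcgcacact
Prc1 (chr7:80294351-80294480, plus strand): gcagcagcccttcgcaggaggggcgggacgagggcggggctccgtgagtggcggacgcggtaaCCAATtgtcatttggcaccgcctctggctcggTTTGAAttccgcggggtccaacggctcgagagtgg
Ccnb1 (chr13:100786457-100786586, minus strand): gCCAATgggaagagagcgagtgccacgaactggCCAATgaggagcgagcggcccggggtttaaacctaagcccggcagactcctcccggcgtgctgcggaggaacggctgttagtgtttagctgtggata

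A CHR lay in 36 of the 43 member windows (83.7%), against 19.2% of all 32851 windows of the same length. It began within 50 bases of the start in 32 of them (74.4%), against 5.31% of all windows. A CCAAT box lay in 33 windows (76.7%, against 37.4% of all), and both motifs in 31 (72.1%, against 7.52%). The E2F letters TTTCGCGC or TTTGGCGC, searched likewise, lay in 3 windows (6.98%, against 0.813%). Birc5, Ccnb1, Cenpe, Mad2l1, Ncaph, Nuf2 and Pttg1 had a window without these CHR letters. For 28 of the 40 members, the bases just after the RefSeq start were found in the same orientation in a GENCODE transcript of the gene. In Ccnb2 the CHR began 4 bases after the start, behind a row of CCAAT boxes, while in Ube2c it began 29 bases before it. A CHR, a CCAAT box and the E2F letters can share at most 1 base with each other, whereas matches of 1 motif on the 2 strands can share more. These matches describe letters and not binding.

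**Figure D1:**
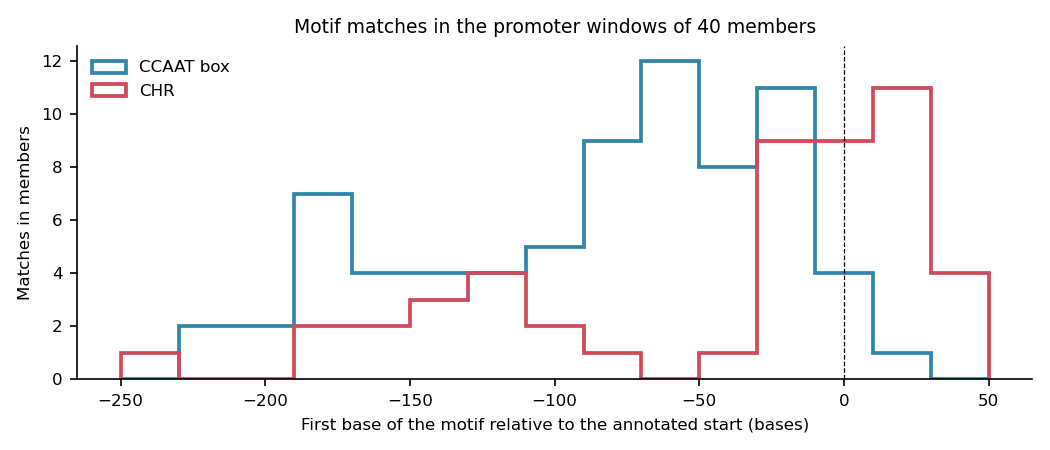
Number of motif matches (vertical axis) by the distance in bases of their first base from the annotated start (horizontal axis, bins of 20 bases; dashed line, start) in the promoter windows of 40 members, for the CCAAT box (blue) and the CHR (red). CHR matches gather around the start and CCAAT boxes before it, and the CHR was within 50 bases of the start in 32 of 43 windows.

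The libraries were checked before the members were compared. Tut1 was at 12.2 TPM for the control but 29.8 TPM for the library labelled Tut1 KO, and at 12.5 and 13.7 TPM in the Trp53 KO and double KO libraries. The level of Tut1 therefore went against the label of the Tut1 KO library and did not set the double KO apart from the Trp53 KO library. A gene-level TPM also counts reads from exons that Cre leaves in place. Directions for Tut1 below thus rest on the labels and not on these values. Trp53 was at 120 and 100.4 TPM in the control and the library labelled Tut1 KO, and at 39.7 and 41.9 TPM in the Trp53 KO and double KO libraries. Xist, the RNA of the inactive X chromosome, was at 188 TPM in the library labelled Tut1 KO, 204 TPM in the Trp53 KO library, but near 0 (0.0097 and 0.0089 TPM) in the control and the double KO, and Y-linked Ddx3y showed the opposite split. Each of the 4 comparisons below therefore also set a library with Xist against one without, and the part of this in the results was not tested. All 8 neural stem cell markers (Nes, Sox2 and others) reached 10 TPM, with sums of 10485 to 12317 TPM. Sums were 163 to 231 TPM for 5 neuronal markers, 82.2 to 93.5 for 4 astrocyte markers, 4.50 to 8.36 for 4 oligodendrocyte markers and at most 1.14 for 4 endothelial, 4 fibroblast and 4 microglial markers each, of which 1, 1 and 2 were at 0 throughout.

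The 48 genes were expressed at middle to high levels in every library. Their summed level was 4954 TPM for the control, 4113 TPM for the library labelled Tut1 KO, and 5133 and 4923 TPM in the Trp53 KO and double KO libraries. This was 0.495%, 0.411%, 0.513% and 0.492% of all TPM, lowest in the library labelled Tut1 KO. In bulk RNA, fewer dividing cells and less mRNA per dividing cell cannot be told apart. The median member was at 81.0, 65.5, 78.9 and 77.9 TPM in the same order of libraries. Levels ran from Espl1, the protease separase, at 14.5 to 18.04 TPM, to Ube2c, the ubiquitin-conjugating enzyme of the anaphase-promoting complex, at 464 to 532 TPM. The ranking of members hardly moved between libraries: Spearman's rho of their TPM was at least 0.966 for every pair of libraries, as a description over 48 genes that share each library. For the median member the highest library was 1.34 times the lowest, close to the 1.31 times of the median protein-coding gene, and 10 members reached 1.5 times.

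**Figure D2:**
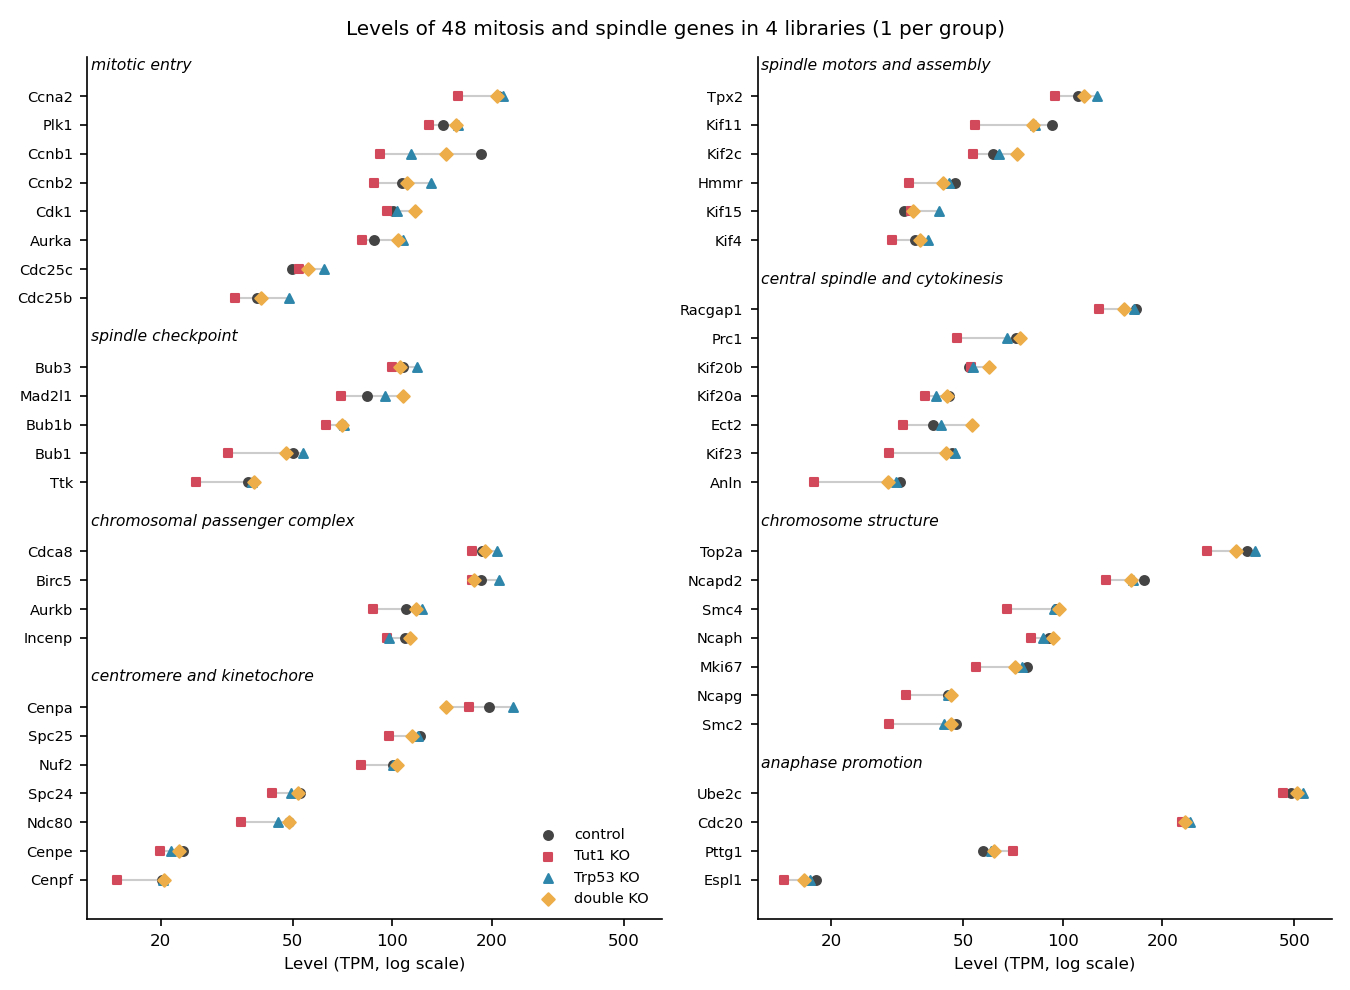
Level of each of the 48 members (TPM, log scale) in the control (dark circles), the library labelled Tut1 KO (red squares), the Trp53 KO (blue triangles) and the double KO library (yellow diamonds), 1 library each, with members ordered by role. The red squares lie leftmost for 43 of the 48 members, with Ccnb1 showing the widest spread, from 92.0 to 185 TPM.

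The lowest library was the same for most members, while the highest varied. In 43 of 48 members the library labelled Tut1 KO was the lowest, where this held for 42.3% of all protein-coding genes tested. The summed level of the 5 neuronal markers was lowest there too, at 163 TPM against 231, 202 and 213 TPM in the control, Trp53 KO and double KO, carried by Map2 at 141 TPM against 208, 181 and 191 TPM. Of the other 4, Dcx was highest there and Rbfox3 alone was also lowest there, and their part in the members' levels was not tested. The exceptions were Cenpa, lowest in the double KO, and Cdc25c, Kif15, Kif20b and Pttg1, lowest in the control. No member was lowest in the Trp53 KO library, which was the lowest for 25.1% of all genes, and 20 members were highest there (18.8% of all genes). In 18 members both libraries labelled for Trp53 loss lay above both Trp53-intact libraries (14.2% of all genes), and in 0 members below them (13.7% of all genes). In 17 members both libraries labelled for Tut1 loss lay below the other two (17.0% of all genes), and in 1 above (15.3% of all genes). When the library labelled Tut1 KO was left out, a choice made after the data were seen, the lowest library was the control for 19 members, the Trp53 KO for 12 and the double KO for 17, against 25.9%, 46.3% and 27.8% of all genes.

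In the library labelled Tut1 KO against the control, 44 of 48 members were below 0 on the scale of differences in log2(TPM + 1), against 62.0% of all genes. Of the members, 1 was called lower, meaning a difference of at least 1 (2.21% of all genes), and 0 were called higher (1.10% of all genes). The median difference of members was -0.28, against -0.10 over all genes. At a threshold of 1.5-fold, 6 members were lower, as were 7.34% of all genes. These 6 were Ccnb1, Anln, Kif11, Smc2, Bub1 and Kif23, of which 1, Ccnb1, remained past 1.5-fold (3.59% of all genes) after the fit on GC content and length described below.

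With Trp53 deleted, in the double KO against the Trp53 KO library, the members as deposited lay close together around 0. Of the 48, 28 were below 0 (39.8% of all genes), 0 were called lower (1.20% of all genes) and 0 higher (1.29% of all genes), with a median of -0.04 against 0.06 for all genes. At 1.5-fold, 1 member, Cenpa, was lower (3.49% of all genes). These 2 comparisons share no library, and 26 members were below 0 in both, as were 24.0% of all genes. The difference between the 2 comparisons had a median of -0.29 over members and of -0.15 over all genes, and 1 member, Ccnb1, was lower there by at least 1 (3.68% of all genes). After the fit on GC content and length described below, 37 members were below 0 in the double KO against the Trp53 KO, with a median of -0.10. In the library labelled Tut1 KO against the control, 38 were then below 0, with a median of -0.11.

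In the Trp53 KO against the control, 20 members were below 0 (61.6% of all genes) and the median was 0.04, against -0.06 for all genes. Again 0 members were called lower (1.68% of all genes) and 0 higher (1.40% of all genes), and 1, Ccnb1, was lower by at least 1.5-fold (4.07% of all genes). In the double KO against the library labelled Tut1 KO, only Cenpa and Pttg1 were below 0 (38.2% of all genes lay there), and the median was 0.28 against 0.09 for all genes. Here too 0 members were called lower (1.45% of all genes) and 0 higher (1.79% of all genes), and 6 were higher by at least 1.5-fold (6.18% of all genes). These were Anln, Ect2, Ccnb1, Prc1, Mad2l1 and Smc2, and after the fit 0 members reached 1.5-fold (3.11% of all genes). This comparison shares the library labelled Tut1 KO with the comparison against the control, so a value that is low in that library enters both with opposite signs. The Trp53 comparisons share no library with each other, and 26 members were above 0 in both (21.7% of all genes) and 0 below 0 in both (21.4% of all genes).

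**Figure D3:**
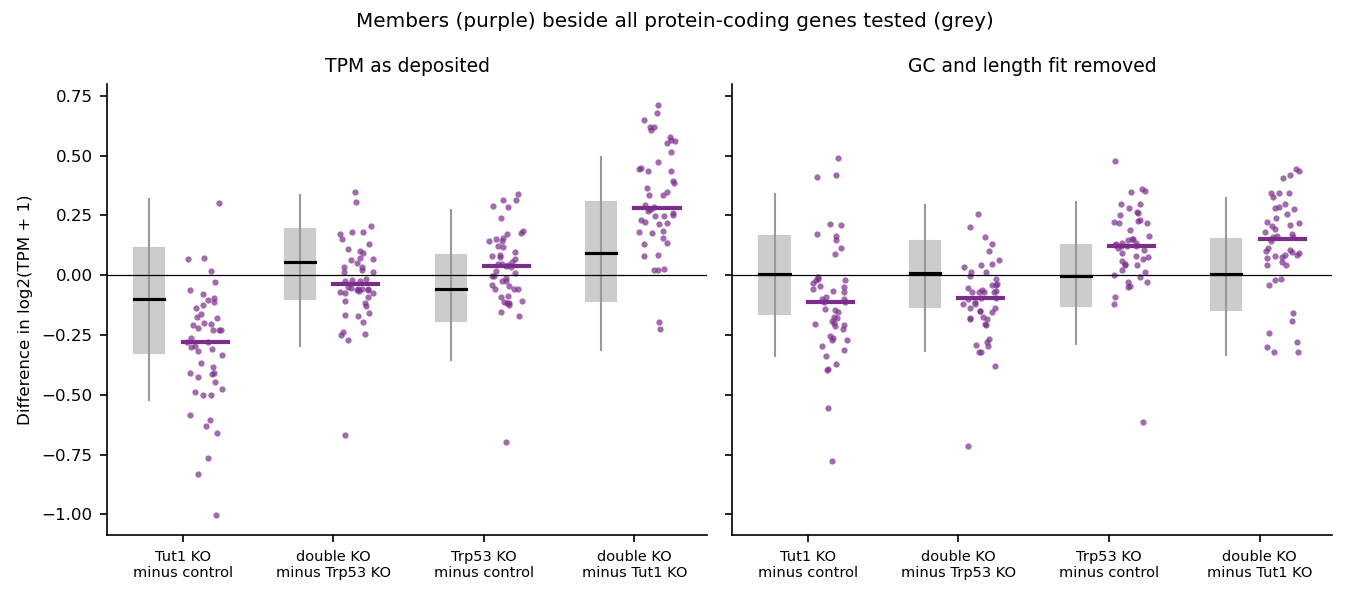
Difference in log2(TPM + 1) of the 48 members (purple points; line, median) beside all protein-coding genes tested (grey box, quartiles; whisker, the central 80%; black line, median) in 4 comparisons, as deposited (left) and with a fit on GC content and transcript length removed (right). The members' median in the library labelled Tut1 KO against the control was -0.28 as deposited and -0.11 after the fit.

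The differences moved with the base composition of the transcripts. Transcripts of the members had a median GC content of 46.4% (39.4% to 56.1%) and a median length of 3366 nucleotides, against 50.2% and 3024 nucleotides over all genes with a sequence. In the library labelled Tut1 KO against the control, Spearman's rho between GC content and the difference was 0.41 over the 48 members and 0.45 over 8469 genes, as a description over genes that share the same 2 libraries. The slope ran the other way in the double KO against the library labelled Tut1 KO (-0.44 and -0.50) and, less steeply, in the double KO against the Trp53 KO (-0.22 and -0.22). The 24 members of lower GC content had a median of -0.42 and the 24 of higher GC content a median of -0.20. After a quadratic fit of all genes on GC content and length was removed, these medians were -0.08 and -0.13, and the median over all 48 members was -0.11, with 38 below 0. The corresponding medians were -0.10 in the double KO against the Trp53 KO (37 below 0), 0.12 in the Trp53 KO against the control (9 below 0) and 0.15 in the double KO against the library labelled Tut1 KO (10 below 0). The difference between the 2 Tut1 comparisons had a corrected median of -0.04. On the corrected scale 35 members were lowest in the library labelled Tut1 KO (29.6% of all genes), and 32 were highest in the Trp53 KO library (25.1% of all genes). In the library labelled Tut1 KO against the control, 0 members were then called (142 lower and 121 higher of 8469 genes). The part of composition in the results was not tested.

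**Figure D4:**
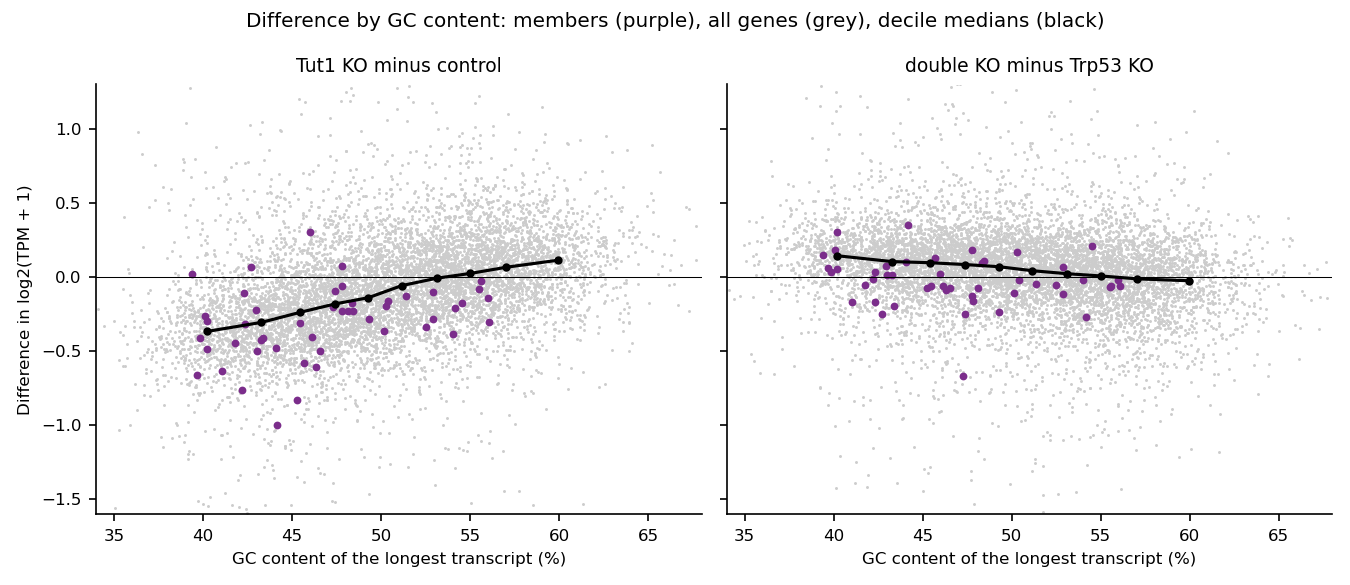
Difference in log2(TPM + 1) (vertical axis) by GC content of the longest transcript in percent (horizontal axis) for the library labelled Tut1 KO against the control (left) and the double KO against the Trp53 KO (right), with members in purple, all genes tested in grey and medians of 10 equal bins in black (genes outside the axes are not drawn). At left the black line climbs with GC content and members follow it with a rho of 0.41, while at right it declines, with a rho of -0.22 over members.

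Of the 8 members that act in mitotic entry, 7 were below 0 in the library labelled Tut1 KO against the control, with a median of -0.17, and 7 were above 0 in the Trp53 KO against the control, with a median of 0.22. Ccnb1 (chr13:100778650-100786570 in mm10, minus strand), cyclin B1, the activator of Cdk1 at mitotic entry, was at 185 TPM in the control, 92.0 in the library labelled Tut1 KO, and 114 and 145 TPM in the Trp53 KO and double KO libraries. It was thus highest in the control and lowest in the library labelled Tut1 KO, where it fell by 1.0002 on the log2 scale, the only call among the members in the 4 comparisons, and the level of Tut1 itself went against that library's label. After the GC and length fit the difference was -0.78, and with the TPM of 3 processed pseudogenes added, a choice made after the data were seen, it was -0.97. The difference between the 2 Tut1 comparisons was -1.35 for Ccnb1, and -1.03 after the fit. In the other comparisons it differed by -0.70 in the Trp53 KO against the control, by 0.35 in the double KO against the Trp53 KO and by 0.65 in the double KO against the library labelled Tut1 KO (0.42 after the fit).

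The paired cyclin shared the lowest library with Ccnb1 and parted from it in the Trp53 KO. Ccnb2, cyclin B2, which also binds Cdk1, was at 107, 87.7, 131 and 111 TPM in the control, the library labelled Tut1 KO, the Trp53 KO and the double KO, an order of libraries kept for the values below. It was highest in the Trp53 KO library, where Ccnb1 was second lowest. The ratio of Ccnb1 to Ccnb2 in TPM was accordingly 1.73, 1.05, 0.869 and 1.31. Ccna2, cyclin A2, which acts from S phase to early mitosis, was at 209, 157, 215 and 207 TPM. Only the library labelled Tut1 KO stood apart for it, with a difference of -0.41 from the control (-0.21 after the fit). Plk1, the polo-like kinase of mitotic entry and spindle assembly, was at 142, 129, 158 and 156 TPM, with both Trp53-deleted libraries above the other two. Cdc25b and Cdc25c encode phosphatases that activate Cdk1. Cdc25b was at 38.9, 33.5, 48.6 and 40.1 TPM and Cdc25c at 49.6, 52.2, 62.0 and 55.5 TPM. Both were highest in the Trp53 KO library, by 0.31 and 0.32 over the control on the log2 scale. Cdk1 itself (96.6 to 117 TPM; -0.06 against the control, 0.15 after the fit) and Aurka, the centrosomal Aurora kinase (80.7 to 108 TPM), were lowest in the library labelled Tut1 KO as well.

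All 5 spindle checkpoint members were lowest in the library labelled Tut1 KO, with a median difference from the control of -0.26 (-0.03 after the fit, with 3 of 5 below 0). Bub3, which carries checkpoint proteins to kinetochores, was at 108, 99.6, 119 and 105 TPM. Mad2l1, which sequesters Cdc20, was at 84.1, 70.0, 95.0 and 108 TPM. Mad2l1 was highest in the double KO, 0.62 above the library labelled Tut1 KO (0.16 after the fit). In the library labelled Tut1 KO against the control, the differences of Bub3 (-0.11) and Mad2l1 (-0.26) turned to 0.21 and 0.21 after the fit. Bub1, the kinase that marks centromeres and recruits the checkpoint, was at 50.1, 31.99, 53.8 and 47.8 TPM. Its difference from the control was -0.63 in the library labelled Tut1 KO (-0.27 after the fit) and its other 3 libraries lay close together. Bub1b (63.1 to 71.6 TPM) and Ttk (25.5 to 38.1 TPM) had the same lowest library.

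The chromosomal passenger complex corrects faulty attachments and guides cytokinesis. As deposited, it was among the roles with smaller median differences between the library labelled Tut1 KO and the control. All 4 members were below 0 in the library labelled Tut1 KO against the control, with a median of -0.14. After the fit the median was also -0.14, with 3 of 4 below 0 and Birc5 at 0.09. This was then larger in size than the medians of the spindle checkpoint (-0.03), spindle motors and assembly (-0.06), chromosome structure (-0.07) and anaphase promotion (-0.11). Cdca8, the borealin subunit, was at 187, 174, 206 and 190 TPM. Birc5, survivin, was at 185, 173, 209 and 176 TPM. These partners kept nearly equal levels in each library. Aurkb, the kinase of the complex, ranged from 87.2 to 123 TPM and Incenp, its scaffold, from 96.4 to 113 TPM. Relative to Incenp, in TPM, Cdca8 was at 1.68 to 2.11 times, Birc5 at 1.56 to 2.14 times and Aurkb at 0.905 to 1.26 times, with each ratio highest in the Trp53 KO library.

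At the centromere and kinetochore, Cenpa differed from the rest of its role. Cenpa (chr5:30666777-30674830, plus strand), the histone H3 variant that marks centromeres, was at 196, 170, 232 and 145 TPM. It was highest in the Trp53 KO and lowest in the double KO library, and its difference of -0.67 between these (-0.71 after the fit) had the largest size among the members in that comparison. The other 6 members were lowest in the library labelled Tut1 KO. Spc25, a subunit of the Ndc80 complex that holds microtubules, was at 121, 97.8, 119 and 114 TPM. Its partners showed the same dip as deposited, with Nuf2 at 80.6 TPM in the library labelled Tut1 KO and 100.5 to 103 TPM elsewhere, Ndc80 at 34.8 against 45.3 to 48.8 TPM, and Spc24 at 43.2 against 49.5 to 52.6 TPM. From the control, that library differed by -0.32 for Nuf2 (-0.05 after the fit), -0.48 for Ndc80 (-0.27) and -0.28 for Spc24 (-0.31). Relative to Ndc80, in TPM, Spc25 was at 2.35 to 2.81 times, Nuf2 at 2.06 to 2.32 times and Spc24 at 1.07 to 1.24 times. Each of these ratios was highest in the library labelled Tut1 KO, where Ndc80 was lowest. Cenpe, a kinetochore motor, ranged from 19.9 to 23.3 TPM and Cenpf, a large kinetochore protein, from 14.8 to 20.5 TPM. In the library labelled Tut1 KO against the control, Cenpe differed by -0.22 and Cenpf by -0.42, and after the fit by 0.17 and -0.02.

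Among spindle motors and assembly factors, Kif11 had the largest difference between the library labelled Tut1 KO and the control as deposited. Kif11 (chr19:37376403-37421859, plus strand), the motor that pushes spindle poles apart, was at 92.7, 54.2, 82.3 and 81.5 TPM. The library labelled Tut1 KO was below the other 3 and differed from the control by -0.76 (-0.39 after the fit; GC content 42.2%), while the Trp53 KO and double KO libraries were nearly equal. Tpx2, which activates Aurka on the spindle, was at 111, 94.8, 127 and 116 TPM. Kif15, a motor that can act beside Kif11, was at 33.2, 34.8, 42.2 and 35.3 TPM. Kif15 thus did not share the dip of Kif11 and was highest in the Trp53 KO, by 0.34 over the control. In the library labelled Tut1 KO against the control it differed by 0.07, and by 0.42 after the fit, then larger in size than Kif11. Kif2c, a microtubule depolymerase (53.4 to 72.6 TPM), Hmmr, a spindle-associated protein (34.4 to 47.1 TPM), and the X-linked chromokinesin Kif4 (30.5 to 39.1 TPM) were lowest in the library labelled Tut1 KO.

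The central spindle and cytokinesis genes held some of the widest gaps. Anln (chr9:22332012-22389188, minus strand), the actin-binding anillin of the cleavage furrow, was at 32.4, 17.8, 31.4 and 29.7 TPM. Its levels outside the library labelled Tut1 KO lay close together. That library differed from the control by -0.83 (-0.55 after the fit), and the double KO was 0.71 above it (0.45 after the fit). Racgap1, a subunit of centralspindlin, was at 166, 129, 165 and 153 TPM. Prc1, which bundles the antiparallel microtubules of the midzone, was at 72.3, 47.9, 67.7 and 74.3 TPM. Both were lowest in the library labelled Tut1 KO, with Prc1 differing from the control by -0.58 (-0.37 after the fit). Ect2, the exchange factor that activates RhoA at the equator, was at 40.7, 32.9, 43.0 and 53.3 TPM. Its highest library was the double KO, 0.68 above the library labelled Tut1 KO and 0.30 above the Trp53 KO (0.28 and 0.16 after the fit). Its difference between the library labelled Tut1 KO and the control was -0.30 and turned to 0.11 after the fit. Kif23, the motor partner of Racgap1 (29.99 to 47.3 TPM), stood at 0.233 times the TPM of Racgap1 in the library labelled Tut1 KO and at 0.278 to 0.291 times elsewhere. Kif20a, a motor of the midzone, was at 38.4 to 45.3 TPM. Kif20b, its relative, was at 52.1 to 59.8 TPM and was among the few members not lowest in the library labelled Tut1 KO.

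All 7 chromosome structure members were lowest in the library labelled Tut1 KO, with a median difference from the control of -0.41 that was -0.07 after the fit. Top2a, topoisomerase II alpha, which untangles sister DNAs, was at 361, 272, 382 and 333 TPM. Ncapd2, a condensin I subunit, was at 176, 135, 163 and 160 TPM. Exons of both overlap another gene, and reads there could be assigned to either. Smc2, the core ATPase of condensin, was at 47.7, 29.9, 43.9 and 46.0 TPM. Its difference from the control, -0.66, was -0.20 after the fit, at a GC content of 39.7%. Smc4, its ATPase partner, was at 2.002 to 2.27 times Smc2 in TPM, Ncapg at 0.944 to 1.12 times, Ncaph at 1.91 to 2.69 times and Ncapd2 at 3.49 to 4.52 times. Each of these ratios was highest in the library labelled Tut1 KO, where Smc2 was lowest. Mki67, the Ki-67 protein that coats mitotic chromosomes and is used as a proliferation marker, ranged from 54.7 to 77.8 TPM.

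Of the 8 roles, anaphase promotion had the smallest median difference between the library labelled Tut1 KO and the control, -0.05 over 4 members, as deposited. After the fit it was -0.11, larger in size than those of the spindle checkpoint (-0.03), spindle motors and assembly (-0.06) and chromosome structure (-0.07). Ube2c was at 490, 464, 532 and 509 TPM and Cdc20, the activator of the anaphase-promoting complex, at 234, 229, 243 and 233 TPM. The highest library was 1.06 times the lowest for Cdc20, the narrowest ratio of all 48 members. Pttg1 (chr11:43420250-43426251, minus strand), securin, which holds separase inactive, was at 57.3, 70.9, 60.8 and 61.9 TPM. It was the only member highest in the library labelled Tut1 KO, 0.30 above the control (0.41 after the fit).

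**Figure D5:**
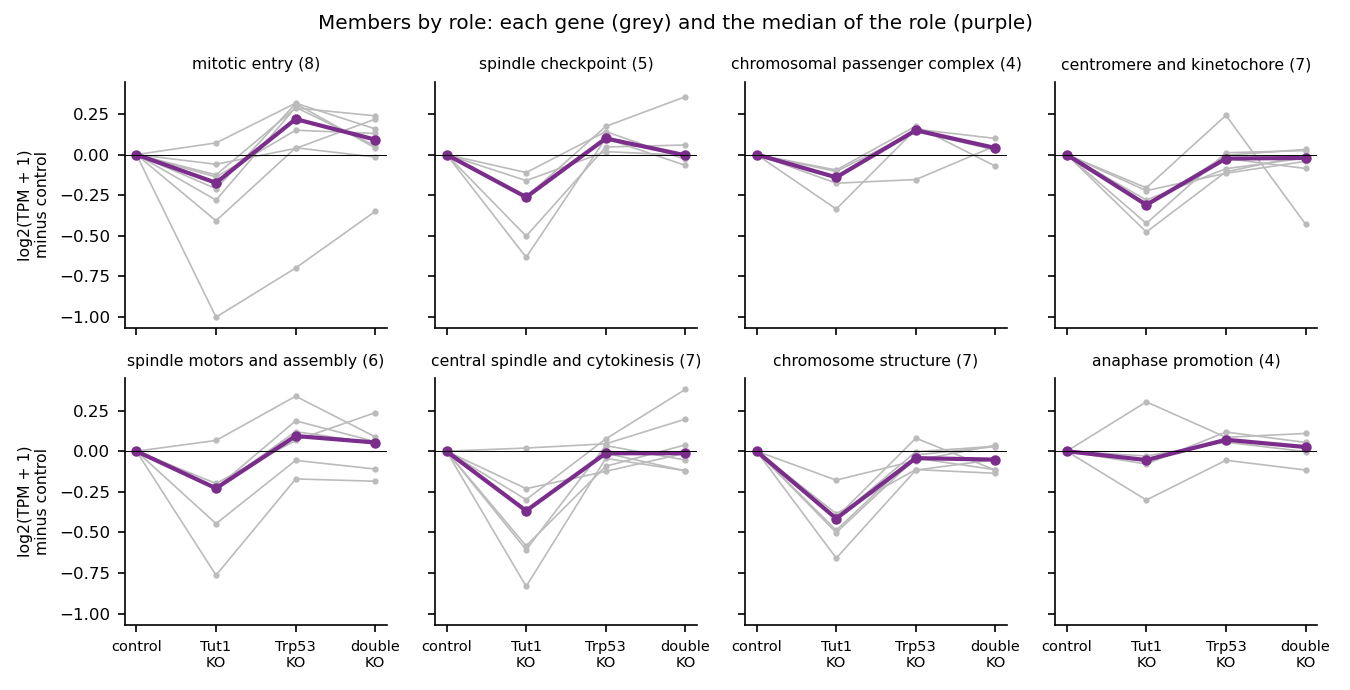
Level relative to the control, as log2(TPM + 1) minus that of the control (vertical axis), in the 4 libraries (horizontal axis) for the members of each role (grey; number of members in parentheses) and their median (purple); lines join single libraries for the eye only. The medians dip in the library labelled Tut1 KO, as deposited from -0.05 for anaphase promotion to -0.41 for chromosome structure, and after the fit on GC content and length from -0.03 for the spindle checkpoint to -0.26 for the central spindle and cytokinesis.

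Other genes of mitosis were read from 5 lists of 105 genes, 100 of which passed the minimum level. Of these, 81 were below 0 in the library labelled Tut1 KO against the control (62.0% of all genes; 68 of the 100 after the fit), with a median of -0.30 (-0.07 after the fit), near that of the members, and 63 were lowest in that library (42.3% of all genes). Their calls are given beside the share of all genes. In that comparison 2 were called lower (2.21% of all genes), in the double KO against the Trp53 KO 2 were called higher and 1 lower (1.29% and 1.20%), in the Trp53 KO against the control 0 were called (1.68% lower and 1.40% higher), and in the double KO against the library labelled Tut1 KO 1 was called higher (1.79%). Pds5a, a regulator of cohesin, was at 41.5, 9.70, 37.1 and 15.3 TPM. It was low in both libraries labelled for Tut1 loss: it fell by 1.99 against the control and fell by 1.22 against the Trp53 KO (-1.59 and -1.37 after the fit). Haus2, a subunit of the augmin complex that branches spindle microtubules, was at 23.7, 4.82, 22.7 and 16.4 TPM, low in the library labelled Tut1 KO and 1.58 higher in the double KO (1.24 after the fit). Ncapd3, a condensin II subunit, was at 18.5, 22.8, 17.6 and 37.1 TPM, and Mis12, a kinetochore linker, at 30.5, 22.6, 15.1 and 32.9 TPM. Both were highest in the double KO, by 1.03 and 1.07 over the Trp53 KO, calls that were lost after the fit (0.94 and 0.99).

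By list, the median differences in the library labelled Tut1 KO against the control were -0.45 for 15 cohesin and condensin II genes, -0.33 for 25 other centromere and kinetochore genes, -0.30 for 29 other spindle and centrosome genes and -0.31 for 14 other genes of mitotic entry. After the fit they were -0.03, -0.19, -0.07 and -0.17. The 17 subunits and partners of the anaphase-promoting complex, most of which are not periodic in the cell cycle, had a median of 0.13 (0.17 after the fit), with 7 below 0. The 36 DNA replication genes that passed the minimum, which are expressed in the preceding S phase, had a median of -0.18 (-0.13 after the fit), with 30 below 0 (62.0% of all genes), 0 called in that comparison (2.21% lower and 1.10% higher) and 27 lowest in the library labelled Tut1 KO (42.3% of all genes). In the other comparisons the replication list held Fen1, the flap endonuclease, at 18.7, 16.4, 42.2 and 48.2 TPM. Fen1 was higher in both Trp53-deleted libraries, by 1.13 over the control (1.40% of all genes called higher) and 1.502 over the library labelled Tut1 KO (1.79%). The same list held Rpa1, a subunit of the single-strand DNA-binding complex, at 76.7, 51.6, 23.3 and 56.9 TPM. Rpa1 fell by 1.68 in the Trp53 KO against the control (1.68% of all genes called lower). In the double KO against the Trp53 KO it was higher by 1.25 (1.29% of all genes called higher). Exons of Rpa1 overlap another gene.

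The regulators of these promoters comprised 12 genes of the DREAM, MuvB and FOXM1 group, with a median of -0.17 in the library labelled Tut1 KO against the control (-0.03 after the fit). Cdkn1a, which encodes the CDK inhibitor p21, was at 477, 605, 196 and 179 TPM. It was the only gene of this list that was called. It fell by 1.28 in the Trp53 KO against the control (1.68% of all genes were called lower there). It also fell by 1.75 in the double KO against the library labelled Tut1 KO (1.45% of all genes). Its highest library was the one in which 43 of 48 members were lowest, and its part in their levels was not tested. Its difference between the library labelled Tut1 KO and the control, 0.34, was not called. The largest difference of the list in that comparison was that of Tfdp1, at -0.96 (-0.77 after the fit), and it was not called either. Members with the searched CHR letters in their window had a median of -0.30 in that comparison (33 genes). Members without these letters had a median of -0.22 (7 genes, from -1.0002 to 0.30). In the same order, these medians were 0.05 and 0.00 in the Trp53 KO against the control, -0.06 and 0.07 in the double KO against the Trp53 KO, and 0.29 and 0.21 in the double KO against the library labelled Tut1 KO.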

How the data were processed

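RNA of 4 cultures of mouse neural stem cells was measured, 1 library per group, grouped by sample title. The deposited values are TPM per gene, computed by the authors. The submitters' processing notes name mm10, Trimmomatic, HISAT2 and StringTie, with no versions or settings. The labels name a stranded Illumina mRNA kit and the series text long-read Nanopore sequencing, so the platform is uncertain. TPM keeps no depth, so no counting interval is given.

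Each difference is one of log2(TPM + 1), a scale that shrinks the changes of low genes, over protein-coding genes of at least 10 TPM in at least 1 of 4 libraries. A gene was called at a difference of at least 1. GC content and length came from the longest transcript in GENCODE M21 (GRCm38, as mm10), promoters from RefSeq. Values in all libraries are given for the 2 highest members per role, the 5 largest differences per comparison, every call and, from the pathway lists, genes called (at most 5 per comparison). Members and lists were chosen with earlier results of these data known. Scripts (Python 3.11.15, numpy 2.4.6, pandas 2.3.3, matplotlib 3.10.9) were tested on simulated data. Alternatives changed the pseudocount, the minimum, the scaling, the background, overlapping genes and the threshold.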

Additional observations from a re-analysis of the deposited data

How the results depend on the processing

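No alternative reversed a call or the sign of a median over the 48 members, but single members that were not called changed sign. After the GC and length fit this held for 6 members in the library labelled Tut1 KO against the control (Birc5, Bub3, Cdk1, Cenpe, Ect2 and Mad2l1), 9 in the double KO against the Trp53 KO, 11 in the Trp53 KO against the control and 8 in the double KO against the library labelled Tut1 KO. The call of Ccnb1 in the library labelled Tut1 KO against the control sat at the threshold. Members called lower there numbered 0 with a pseudocount of 5 (Ccnb1 at -0.97), with the median of all genes set to 0 (-0.90), with quantile normalization (-0.95), without mitochondrially encoded and ribosomal protein genes (-0.98) and after the GC and length fit (-0.78), and 6 at 1.5-fold. At 1.5-fold, 1 member was called lower in the double KO against the Trp53 KO (3.49% of all genes), 1 lower in the Trp53 KO against the control (4.07%), and 6 higher in the double KO against the library labelled Tut1 KO. Members below 0 in the Trp53 KO against the control numbered 10 with the median of all genes set to 0 and 9 after the fit. In the double KO against the library labelled Tut1 KO they numbered 7 with the median set to 0, 5 with quantile normalization and 10 after the fit. Medians after the fit were -0.11 in the library labelled Tut1 KO against the control, 0.15 in the double KO against that library and -0.035 for the difference between the Tut1 comparisons, which was -0.14 with the medians set to 0. Relative to all genes, that last difference was -0.14 as reported, -0.29 with no minimum and -0.027 after the fit. With no minimum, genes without expression enter the background, and the value equals the members' own median, so it makes no comparison with expressed genes. Of the summary values, 231 alternatives gave the same reading and 20 did not. Of the values of single genes, 199 did and 22 did not. The cause of the changes was not tested. All 48 members reached 10 TPM in every library. The other minimum levels tried and the background of all biotypes therefore could not alter member counts, member medians or single-gene values. They could alter only medians relative to all genes. The totals include these fixed values and thus overstate how far the results were tested. A median or single-gene value also counted as the same if its shift stayed under 0.1 and no call was lost. No paired analysis was possible because each group has 1 library. Without replicates or depth, no difference can be set against an error, and Cre exposure cannot be told apart from genotype in comparisons with the control.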
